A study of Mus musculus with 12 samples.

Results

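The mitochondrial biogenesis regulators are 10 nuclear genes, Ppargc1a, Ppargc1b, Pprc1, Nrf1, Gabpa, Esrra, Tfam, Tfb1m, Tfb2m and Polg, among the 22180 genes that the array measured with a probe set of their own. A member's probe sets were those to which the platform annotation gives exactly 1 of these symbols, 12 in all. Where a gene had several, the one with the highest mean over the 12 arrays was used. Of the 10 members, 9 passed the filter on dim genes and were tested with 17749 genes in all. Ppargc1a lay below it.

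The arrays profiled mouse leukemia of the acute myeloid kind, caused by the fusion gene MLL-AF9 in strain C57BL/6J, with and without AMPK, the kinase that senses a low energy charge. Recipients irradiated with 10 Gy were given 50000 bone marrow progenitor or stem cells that expressed MLL-AF9, and 5000 cells a sample were sorted from bone marrow when the leukemia of a recipient set in. The 4 groups of 3 arrays were AMPKΔ/Δ L-GMP (knockout, KO), AMPKfl/fl L-GMP (WT), AMPKΔ/Δ whole leukemia and AMPKfl/fl whole leukemia. L-GMP are leukemic granulocyte-macrophage progenitors, sorted as GFP+, lineage-negative, c-Kit+, CD16/32+ and CD34+ cells, and called leukemia-initiating cells in the labels. Whole leukemia is all GFP+ cells. MLL-AF9 and the transplant into irradiated hosts are shared by all 4 groups. The wild type carries floxed alleles, and the labels name neither the Cre driver nor the AMPK subunit genes that were deleted. Whether the 3 arrays of a group are separate mice is not stated, so the p-values rest on a spread that may be technical.

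Mitochondria carry a small circular genome, and the rest of their proteins are encoded in the nucleus. PGC-1 coactivators dock on transcription factors such as NRF-1, GABP and ERRα, which bind promoters of respiratory genes and of the factors that copy and transcribe mitochondrial DNA. In muscle, AMPK is known to act on PGC-1α and to raise mitochondrial content, and in blood stem and progenitor cells mitochondrial content is regulated with the metabolic state.

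Short motifs of these factors were looked for in the members' promoters, since the factors among the members are known to act on the promoters of others. RefSeq promoters (build GRCm38.p6, 250 bases before to 50 after the start) were found for 9 of the 10 members, 10 promoters in all. The letters GCGCATGC, the core of the NRF-1 site, were found on either strand in the promoters of 2 members, Tfb2m and Esrra, and in 2.71% of 32851 promoters. CCGGAAGT, a site of ETS factors such as GABP, was found in Tfam and Polg, and in 3.89% of promoters. AAGGTCA, the core letters of the site bound by estrogen-related receptors, was found in 0 members and in 4.72% of promoters. A match says only that the letters are there. The 80 bases around each match are shown 5′ to 3′ on the gene's strand, the minus strand in each case, with the matching letters in capitals, so that the place of the motif near the start of transcription can be seen. On the strand shown the NRF-1 letters read GCATGCGC. They begin at base +14 of Tfb2m and -34 of Esrra, and the ETS letters begin at -47 of Tfam and -38 of Polg.
Tfb2m, chr1:179546227-179546306: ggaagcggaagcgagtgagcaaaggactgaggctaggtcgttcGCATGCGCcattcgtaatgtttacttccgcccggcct
Esrra, chr19:6921799-6921878: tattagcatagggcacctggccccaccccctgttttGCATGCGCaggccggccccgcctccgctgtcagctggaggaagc
Tfam, chr10:71238048-71238127: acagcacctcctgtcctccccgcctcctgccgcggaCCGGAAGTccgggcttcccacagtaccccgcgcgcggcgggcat
Polg, chr7:79466268-79466347: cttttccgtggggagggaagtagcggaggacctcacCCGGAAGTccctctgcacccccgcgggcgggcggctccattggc

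Values are log2 of the deposited intensity, whose array medians lay between 36.88 and 39.33. Levels of different genes come from different probes and are not set against each other. Correlations between arrays ranged from 0.902 to 0.986. 2 arrays lay away from the rest. In a principal component analysis KO whole leukemia array 2 had a first coordinate (30.9% of variance) of 80.5, where the others had -30.5 to 22.0, and KO L-GMP array 2 had a second coordinate (14.8%) of 47.5, where the others had -25.9 to 20.1. Prkaa1, encoding the α1 catalytic subunit of AMPK, measured 7.31, 6.83 and 6.87 in KO L-GMP against 8.33, 7.99 and 8.12 in WT L-GMP. In whole leukemia it measured 7.40, 7.45 and 6.95 in the KO against 8.69, 7.72 and 8.32 in the WT. Every KO array lay below every WT array of its population, although neither difference passed over all genes by limma (-1.15, adjusted p = 0.622, and -0.98, adjusted p = 0.592). Prkaa2, encoding the α2 subunit, lay between 4.66 and 5.05 on all arrays, near the filter on dim genes at 4.72.

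No member of the 9 tested differed past the threshold in any comparison. A gene was called at an adjusted p under 0.05 by limma, with Benjamini-Hochberg adjustment over all 17749 genes. Called members numbered 0 of 9 for KO against WT in L-GMP, where 0.00563% of all genes were called (1 gene). They numbered 0 of 9 for KO against WT in whole leukemia, for L-GMP against whole leukemia in the KO and in the WT, and for the genotype by population interaction, where 0% of all genes were called in each. At an unadjusted p under 0.05 the members numbered 1, 0, 1, 0 and 0 in these 5 comparisons in that order, and all genes 733, 1059, 1312, 443 and 365. On the log2 scale Tfb1m had the widest 95% interval of the 9 members and Esrra the narrowest. In L-GMP these were 0.649-fold to 1.51-fold for Tfb1m and 0.917-fold to 1.32-fold for Esrra. In whole leukemia these intervals were 0.552-fold to 1.28-fold for Tfb1m and 0.818-fold to 1.17-fold for Esrra. The highest upper bounds were those of Tfb2m on its brightest probe set, 1.88-fold in L-GMP and 1.98-fold in whole leukemia. In bulk samples such as these, fewer cells of a type and less RNA per cell cannot be told apart.

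**Figure D1:**
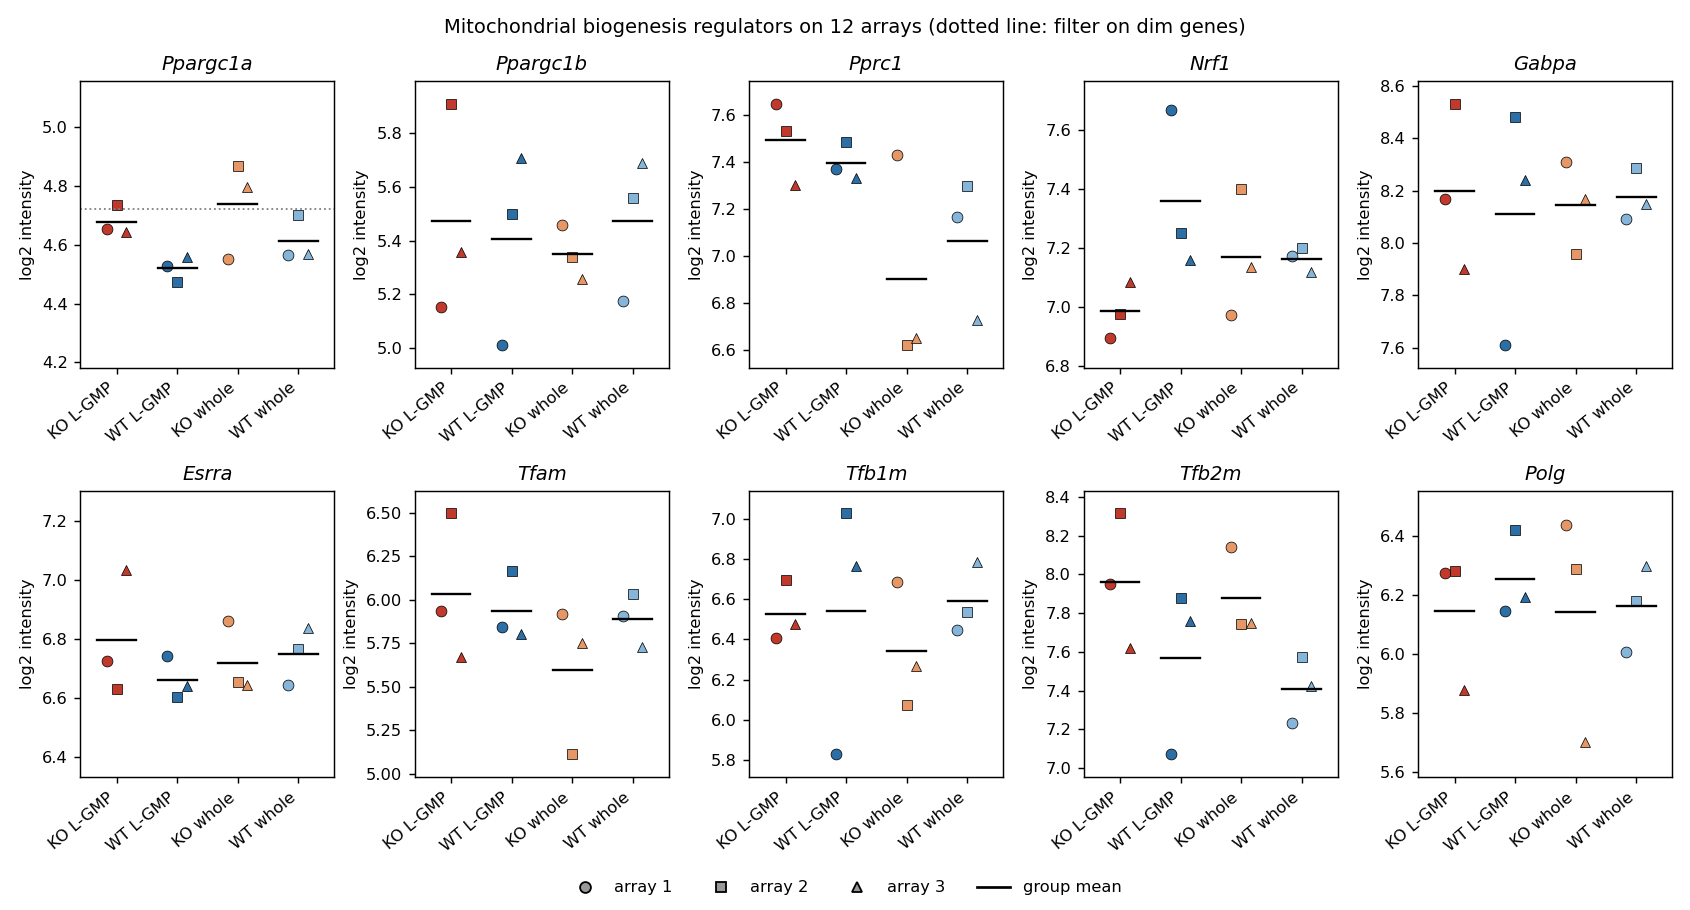
Log2 intensity of the 10 members on each of the 12 arrays, with each panel on a vertical axis of its own. Symbols mark the array number, horizontal bars the mean of the 3 arrays of a group, and the dotted line the filter on dim genes. Groups overlap in most panels, and Nrf1 is lower in KO than in WT L-GMP on all arrays. Tfb2m, shown on probe set 17275303, is higher in KO than in WT whole leukemia.

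Ppargc1a, encoding the coactivator PGC-1α, was at the dim end of the array in every group. It measured 4.65, 4.73 and 4.64 in KO L-GMP against 4.53, 4.47 and 4.56 in WT L-GMP, and 4.55, 4.87 and 4.79 in KO against 4.56, 4.70 and 4.57 in WT whole leukemia. The KO arrays lay above the WT arrays in L-GMP and overlapped them in whole leukemia, over a total range of 0.39. Among the tested genes, which leave out Ppargc1a, 9.48% had arrays that did not overlap in L-GMP. Its mean of 4.64 was lower than the filter, so it was fitted only with no filter, at differences of 0.16 (SE 0.083, adjusted p = 1) in L-GMP and 0.13 (SE 0.083, adjusted p = 0.892) in whole leukemia. Values this close to background compress any difference.

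Ppargc1b, encoding the related coactivator PGC-1β, measured 5.15, 5.91 and 5.36 in KO L-GMP against 5.01, 5.50 and 5.71 in WT L-GMP. Whole leukemia arrays gave 5.46, 5.34 and 5.26 in the KO against 5.17, 5.56 and 5.69 in the WT. All 4 groups overlapped, and their means spanned 0.12, less than the mean SD within a group of 0.28. The differences between genotypes were 0.07 (SE 0.23) in L-GMP and -0.12 in whole leukemia, and without WT whole leukemia array 3 the second was -0.015. The gene overlaps Mir378a and 2 predicted genes, and whether the array kept the strands apart is not given in the sources used here.

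Pprc1, encoding PRC, the serum-inducible member of the coactivator family, separated the populations more than the genotypes. It measured 7.65, 7.53 and 7.30 in KO L-GMP against 7.43, 6.62 and 6.65 in KO whole leukemia, and 7.37, 7.48 and 7.33 in WT L-GMP against 7.17, 7.30 and 6.73 in WT whole leukemia. The L-GMP arrays were all higher in the WT, where 10.3% of all genes had arrays that did not overlap. In the KO 1 whole leukemia array (7.43) reached into the L-GMP range. The difference between populations was 0.59 in the KO (SE 0.22, 95% interval 0.11 to 1.07, 1.51-fold) and did not pass by limma (adjusted p = 0.671). Without KO whole leukemia array 2 it was 0.45. In the WT it was 0.33 (SE 0.22, adjusted p = 1), and 0.16 without WT whole leukemia array 3. Between genotypes it was 0.10 in L-GMP and -0.16 in whole leukemia, against 0.02 without KO L-GMP array 1 and -0.025 without KO whole leukemia array 2. The lowest adjusted p of any member under any setting was that of Pprc1 between populations in the KO without KO whole leukemia array 1, at 0.0792 by limma with a difference of 0.86. Array 1 was the KO whole leukemia array with the highest Pprc1.

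Nrf1, encoding the transcription factor NRF-1, which drives genes of the respiratory chain, measured 6.89, 6.98 and 7.08 in KO L-GMP against 7.67, 7.25 and 7.16 in WT L-GMP. Every KO array lay below every WT array, as was so for 1 of the 9 members. Genes whose arrays did not overlap in either direction made up 9.48% of all genes in this comparison, so 1 of 9 is near the background. The difference was -0.37 (SE 0.14, 95% interval -0.70 to -0.05, 0.771-fold), and it did not pass by limma (adjusted p = 1). In whole leukemia Nrf1 measured 6.97, 7.40 and 7.14 in the KO against 7.17, 7.20 and 7.12 in the WT, and the groups overlapped with a difference of 0.01 (SE 0.14). The genotype difference in L-GMP minus that in whole leukemia was -0.38 (SE 0.20), which did not pass by limma either (adjusted p = 1). WT L-GMP array 1 had the highest Nrf1 of all 12 arrays, and over fits that left out 1 array the L-GMP difference lay between -0.47 and -0.22.

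Gabpa, encoding the DNA-binding subunit of GABP, measured 8.17, 8.53 and 7.90 in KO L-GMP against 7.61, 8.48 and 8.24 in WT L-GMP. The whole leukemia values were 8.31, 7.96 and 8.17 in the KO against 8.09, 8.29 and 8.15 in the WT. Group means spanned 0.09, the smallest span of the 10 members, while single arrays spanned 0.92. The genotype differences were 0.09 (SE 0.22) in L-GMP and -0.03 in whole leukemia. The gene overlaps Atp5j, a subunit gene of ATP synthase.

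Esrra, encoding the orphan nuclear receptor ERRα, measured 6.73, 6.63 and 7.03 in KO L-GMP against 6.74, 6.60 and 6.64 in WT L-GMP. In whole leukemia it measured 6.86, 6.65 and 6.64 in the KO against 6.64, 6.77 and 6.84 in the WT. It had the smallest standard error of the 9 tested members, 0.12, and its genotype differences were 0.14 in L-GMP (0.017 without KO L-GMP array 3) and -0.03 in whole leukemia. In whole leukemia its 95% interval was -0.29 to 0.23, or 0.818-fold to 1.17-fold. This interval rests on 3 arrays a group whose spread may be technical, so a larger change is not excluded. Esrra overlaps Trmt112 and Mir6990.

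**Figure D2:**
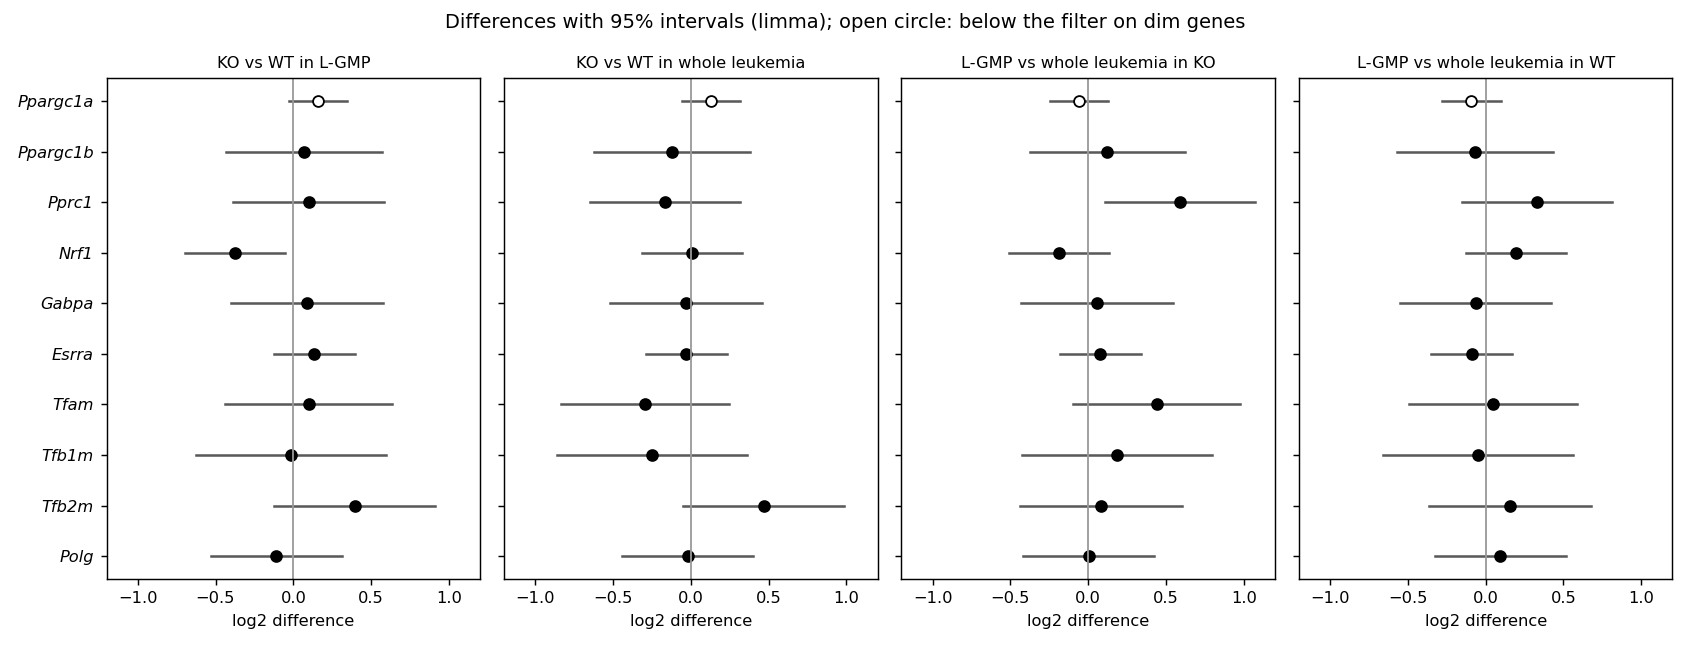
Differences of group means on the log2 scale for the 10 members (points) with 95% intervals from limma (lines), in 4 comparisons. Positive values are higher in the KO in the first 2 panels and higher in L-GMP in the last 2, and the intervals leave out 0 for Nrf1 in the first panel and Pprc1 in the third.

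Tfam, encoding the factor that packages mitochondrial DNA and starts its transcription, measured 5.94, 6.50 and 5.67 in KO L-GMP against 5.84, 6.16 and 5.80 in WT L-GMP. Whole leukemia arrays gave 5.92, 5.11 and 5.75 in the KO against 5.91, 6.03 and 5.73 in the WT. The lowest of these 12 values was in KO whole leukemia array 2 and the highest in KO L-GMP array 2, the arrays that stood apart, and their part in the differences was measured by leaving them out. The difference between populations in the KO was 0.44 (SE 0.24, adjusted p = 0.699 by limma), and without these 2 arrays it was -0.03. Between genotypes the difference was 0.10 in L-GMP and -0.29 in whole leukemia. Without KO L-GMP array 2 the first was -0.13, and without KO whole leukemia array 2 the second was -0.053.

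Tfb1m, encoding a dimethyltransferase of the mitochondrial ribosome's small RNA, measured 6.41, 6.70 and 6.48 in KO L-GMP against 5.83, 7.03 and 6.77 in WT L-GMP. WT L-GMP held both the lowest and the highest of its 12 values. The whole leukemia values were 6.69, 6.07 and 6.27 in the KO against 6.45, 6.54 and 6.79 in the WT. The genotype differences were -0.01 (SE 0.27) in L-GMP and -0.25 in whole leukemia (-0.11 without KO whole leukemia array 2), with the largest standard error of the tested members. Tfb1m overlaps Tiam2 and Cldn20.

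Tfb2m, encoding the factor that melts mitochondrial promoters for the polymerase, had 3 probe sets, and they differed. On the brightest, 17275303, it measured 7.95, 8.32 and 7.62 in KO L-GMP against 7.07, 7.88 and 7.76 in WT L-GMP. In whole leukemia it measured 8.14, 7.74 and 7.75 in the KO against 7.23, 7.57 and 7.42 in the WT. The KO arrays were all higher in whole leukemia, as for 1 of the 9 members, where 11.2% of all genes had arrays that did not overlap. The difference was 0.47 (SE 0.23, 95% interval -0.05 to 0.99, 1.38-fold) and did not pass by limma (adjusted p = 0.829). In L-GMP it was 0.39 (SE 0.23), with overlap, and 0.14 without WT L-GMP array 1.

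The other Tfb2m probe sets did not show this. In whole leukemia 17280923 gave a difference of -0.10 (SE 0.16), with 6.54, 5.99 and 6.27 in the KO against 6.59, 6.39 and 6.10 in the WT. Probe set 17230331 gave 0.0020 (SE 0.13), with 5.19, 5.19 and 4.69 in the KO against 4.96, 5.03 and 5.07 in the WT. In L-GMP these 2 probe sets gave differences of 0.15 and 0.01. Probe set numbers on this array follow the order of genes along the chromosomes. Of the 8 probe sets next in number to each, those of 17230331 belong to chromosome 1, where RefSeq places Tfb2m (GRCm38.p6). For 17275303 and 17280923 all 8 belong to chromosome 12. Among probe sets with 1 symbol and a gene identifier found in RefSeq, most neighbours lay on the gene's own chromosome in 98.6%. Which transcript the chromosome 12 probe sets measure was not tested, so the values of the brightest one may not be those of Tfb2m. The probe sets of the other 9 members lie among genes of their own chromosome.

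**Figure D3:**
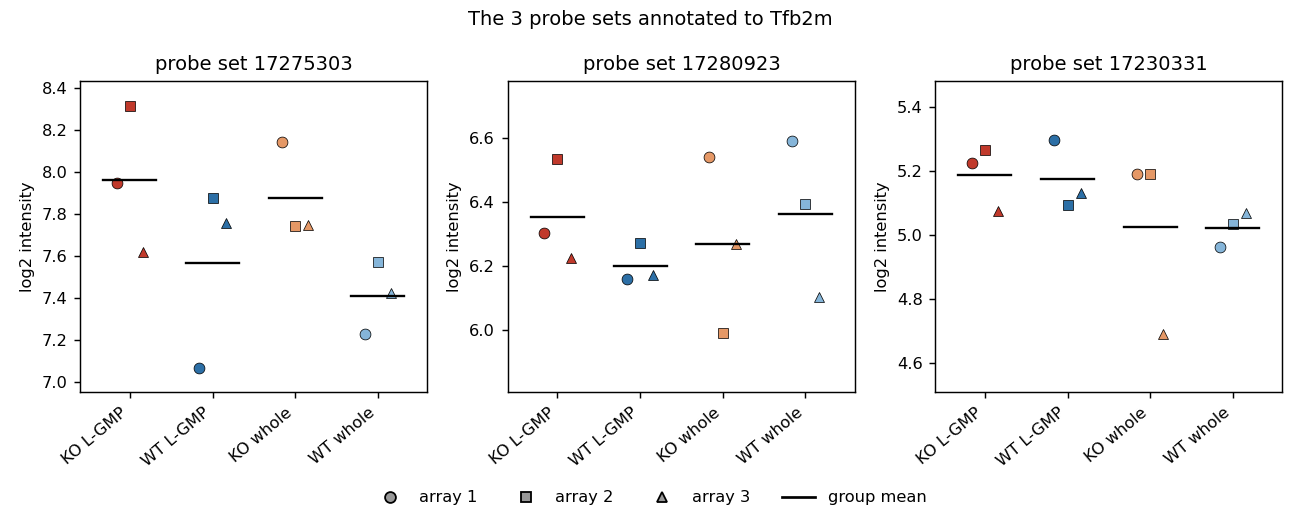
Log2 intensity of the 3 probe sets annotated to Tfb2m on the 12 arrays, with symbols for the array number and bars for group means. In whole leukemia the KO arrays lie above the WT arrays on probe set 17275303 and overlap them on the other 2.

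Polg, encoding the catalytic subunit of the polymerase that copies mitochondrial DNA, measured 6.28, 6.28 and 5.88 in KO L-GMP against 6.15, 6.42 and 6.20 in WT L-GMP. Whole leukemia arrays gave 6.44, 6.29 and 5.70 in the KO against 6.01, 6.18 and 6.30 in the WT. All groups overlapped, and the differences were -0.11 (SE 0.19) between genotypes in L-GMP, -0.02 in whole leukemia and 0.0038 between populations in the KO. Both KO arrays numbered 3 had the lowest Polg of their group. The proliferation markers had their 2 lowest means on the same arrays, 7.35 in L-GMP and 7.37 in whole leukemia, against 8.26 to 9.01 on the other 10, and their part in the Polg values was not tested. Polg overlaps Fanci, a DNA repair gene.

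By group means, KO L-GMP ranked highest for 6 of the 10 members, but neighbours in these orders mostly overlapped. The order of Tfb2m on its brightest probe set was KO L-GMP, KO whole leukemia, WT L-GMP and WT whole leukemia. Pprc1 and Tfam had the order KO L-GMP, WT L-GMP, WT whole leukemia and KO whole leukemia. Neighbouring groups did not overlap at 1 step of the order for Ppargc1a, Pprc1 and Nrf1, and at 0 steps for the other 7. The share of all genes with such a step was not computed, so these counts only describe the members. Of the 9 tested members the KO was higher for 6 in L-GMP (median 0.09) and for 2 in whole leukemia (median -0.03), where it was higher for 54.8% and 49.6% of all genes (medians 0.02 and -0.0016). L-GMP was higher than whole leukemia for 8 in the KO (median 0.08) and for 5 in the WT (median 0.05), against 52.4% and 48.8% of all genes. The arrays of the 2 populations did not overlap for 0 of 9 members in the KO, where 10.2% of all genes did not, and for 1 of 9 in the WT, Pprc1, where 10.3% did not. Single arrays set several of these counts. For KO against WT in L-GMP 6 became 3 without KO L-GMP array 2 (median -0.10) and 4 without WT L-GMP array 1 (median -0.13), and in whole leukemia 2 became 4 without KO whole leukemia array 3. For L-GMP against whole leukemia the KO count of 8 became 4 without KO L-GMP array 2 (median -0.06), and the WT count of 5 became 8 without WT L-GMP array 1 and 4 without WT L-GMP array 2 (median -0.06). The interaction was above 0 for 6 of 9, between -0.38 for Nrf1 and 0.39 for Tfam (SE 0.34), against 54.8% of all genes, and its median of 0.17 became -0.12 without WT L-GMP array 1. The comparisons share groups, so their signs are not independent of each other.

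The highest values of the 10 members fell on 7 of the 12 arrays and the lowest on 5. KO L-GMP array 2 held the highest value of 4 members, Ppargc1b, Gabpa, Tfam and Tfb2m. WT L-GMP array 1 held the lowest of 4, Ppargc1b, Gabpa, Tfb1m and Tfb2m, and the highest of Nrf1. Tfb2m was read here on probe set 17275303, whose values may not be those of Tfb2m. On 17230331, which lies among chromosome 1 genes, WT L-GMP array 1 was instead the highest, at 5.30. As a description over 12 arrays that share 4 groups, the genes most like Tfam were Tnpo1 (Pearson r = 0.964) and Lonp1 (0.963), those most like Pprc1 were Pa2g4 (0.961) and Sf3b3 (0.955), and those most like Ppargc1b were Bmyc (0.944) and Tmem245 (0.910). Tfb1m was most like Ercc3 (0.941) and Coa7 (0.936), Gabpa like Mrps31 (0.934) and Polr3k (0.911), and Polg like Rbl1 (0.920) and Arhgap19 (0.918). Probe set 17275303, annotated to Tfb2m, was most like Rlim (0.924) and Zfp609 (0.914), and these may not be correlations of Tfb2m. Esrra was most like Faap20 (0.897) and Clec1a (0.885), and Nrf1 like Bcl7b (0.877) and Zbtb8b (0.867). These are the highest of 17749 correlations for each member, and how far single arrays set them was not tested.

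The mitochondrial genome itself, which TFAM and TFB2M help to transcribe and POLG copies, encodes subunits of the respiratory chain and ribosomal RNAs. Of 15 such genes 10 were tested, and 9 of these were lower in KO than in WT L-GMP, with a median difference of -0.19, although 0 were called by limma (2 at an unadjusted p under 0.05). Their mean level was 11.93, 11.95 and 11.87 in KO L-GMP against 12.20, 12.06 and 11.98 in WT L-GMP, so every KO array lay below every WT array. Arrays did not overlap for 5 of the 10, against the 9.48% of all genes given above. ND6, a complex I subunit and the one protein-coding gene of the light strand, measured 11.55, 11.58 and 11.63 in KO L-GMP against 11.87, 12.003 and 11.81 in WT L-GMP. Its difference was -0.31 (SE 0.092, adjusted p = 1 by limma), and that of ND5 was -0.27 (SE 0.12). Proliferation markers were lower in KO than in WT L-GMP for 11 of 11 (median -0.43). Without KO L-GMP array 3 they were lower for 5 of 11 (median 0.03), and the mitochondrially encoded median was -0.18. The part of proliferation in this difference was not tested. Without WT L-GMP array 1 the mitochondrially encoded median was -0.12.

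In whole leukemia the mitochondrially encoded genes divided evenly, with 5 higher and 5 lower in the KO and a median of 0.0058. Their mean was 12.09, 11.69 and 11.88 in the KO against 11.93, 11.88 and 11.81 in the WT, and without KO whole leukemia array 2 all 10 were higher (median 0.08). Without KO whole leukemia array 1 only 1 was higher (median -0.10), and without WT whole leukemia array 3 it was 3 (median -0.05). In the WT all 10 were higher in L-GMP than in whole leukemia, with a median of 0.21, arrays that did not overlap for 5 (10.3% of all genes), and 0 called by limma (ND6 0.21, SE 0.092; ND4L 0.26, SE 0.12). In the KO 6 of 10 were higher in L-GMP (median 0.02), and without KO whole leukemia array 2 only 1 was. Over the settings this number ran from 1 to 9, so its direction was not settled. The median was -0.11 without both KO arrays numbered 2 and 0.12 without KO whole leukemia array 1. The interaction was below 0 for all 10 (median -0.19; -0.086 without KO whole leukemia array 1, with 8 below 0), with 0 called by limma. Proliferation markers moved with the population comparison in the WT too, where 11 of 11 were higher in L-GMP (median 0.21), and their part in the mitochondrially encoded values was not tested. Under the other settings the median in L-GMP stayed between -0.25 and -0.11 for KO against WT, and that between populations in the WT between 0.13 and 0.28. These genes are cut from long shared transcripts and are not independent of each other.

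**Figure D4:**
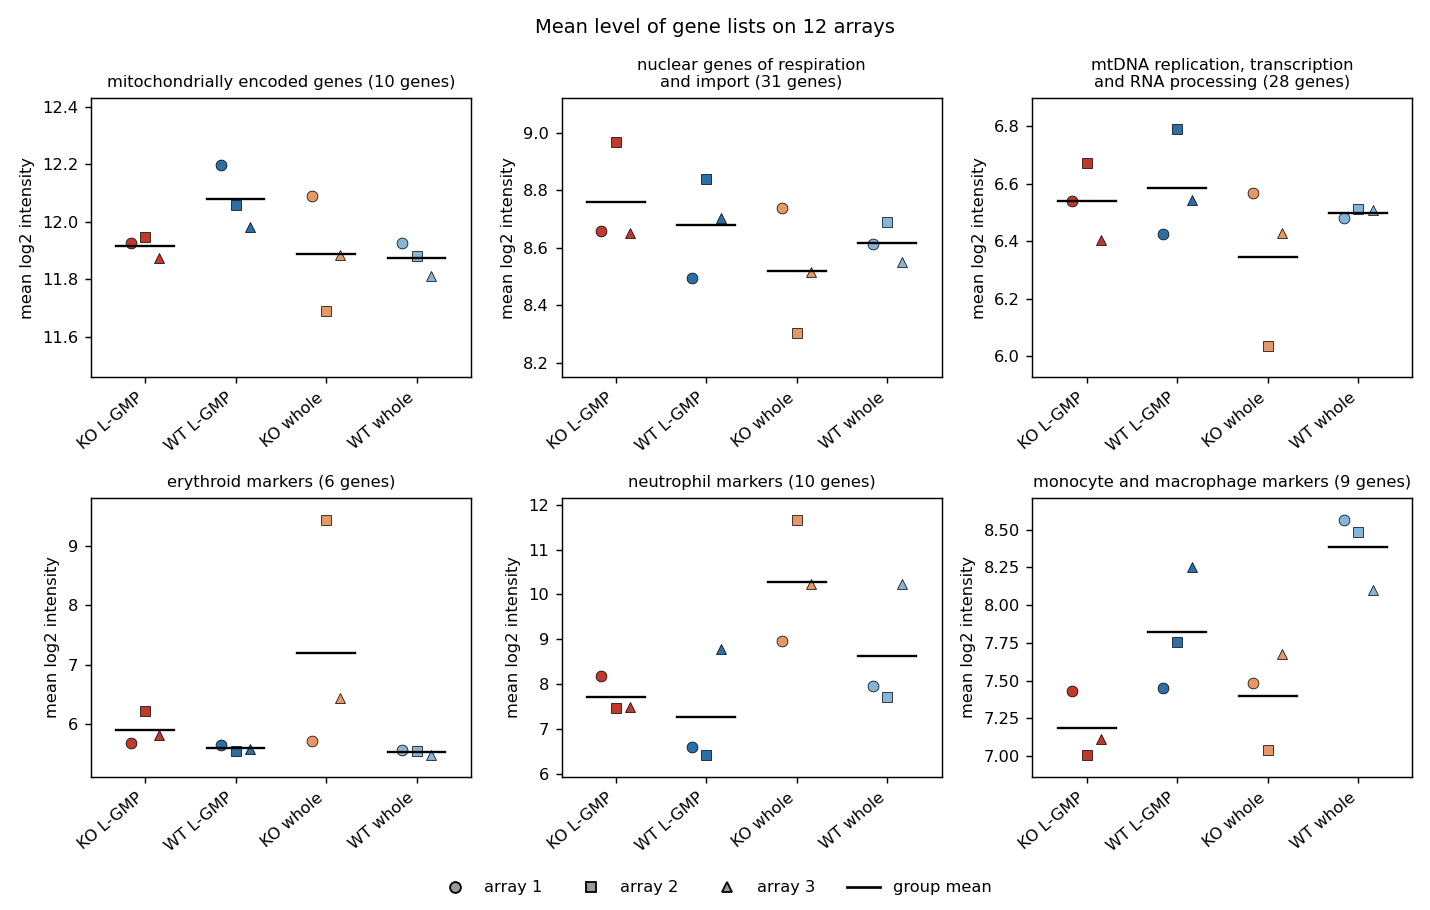
Mean log2 intensity on each of the 12 arrays of 3 mitochondrial gene lists (top) and 3 cell type marker lists (bottom), with bars for group means and a vertical axis of its own in each panel. The mitochondrially encoded genes are lower on all KO than on all WT L-GMP arrays, and KO whole leukemia array 2 has the lowest mean of the 3 mitochondrial lists and the highest of the erythroid and neutrophil markers.

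Genes that copy, transcribe and process mitochondrial DNA, other than the members, numbered 28 tested of 30, and 0 were called by limma in any comparison. In L-GMP 12 were higher in the KO (median -0.06), with the lowest p for Trmt10c of the mitochondrial RNase P at -0.18 (SE 0.12), and without WT L-GMP array 1 the number was 6 (median -0.10). In whole leukemia 5 were higher in the KO and 23 lower (median -0.15), with the nuclease and helicase gene Dna2 at -0.46 (SE 0.17) and the elongation factor gene Tefm at -0.56 (SE 0.22), and without KO whole leukemia array 2 these numbers were 13 and 15 (median -0.02) and Dna2 was at -0.30. Without KO whole leukemia array 1 only 2 were higher (median -0.22). Between populations 24 of 28 were higher in L-GMP in the KO (median 0.18), with Tefm at 0.62 and the topoisomerase gene Top3a at 0.29, and 16 of 28 without that array (median 0.05), where Top3a was at 0.18. In the WT 19 of 28 were (median 0.09), with the helicase gene Supv3l1 at 0.33, and 13 of 28 without WT L-GMP array 2 (median -0.02).

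Nuclear genes of the respiratory chain and of protein import numbered 31 tested of 32, with 0 called by limma. The KO was higher for 21 in L-GMP (median 0.07), with the import receptor gene Tomm22 at 0.47 (SE 0.25) and the complex II gene Sdhb at -0.22 (SE 0.14). It was higher for 8 in whole leukemia (median -0.07), with Sdhb at -0.28 and Cox7c at 0.31 (SE 0.18). Without WT L-GMP array 1 Tomm22 was at 0.14 and the L-GMP number was 11 (median -0.03), and without KO whole leukemia array 2 the whole leukemia number was 12 (median -0.014). Sdhb in whole leukemia was at -0.15 without WT whole leukemia array 1. Between populations 27 of 31 were higher in L-GMP in the KO (median 0.22), among them the import receptor gene Tomm20 at 0.75 (SE 0.24) and the complex IV gene Cox5a at 0.46 (SE 0.15). Without KO whole leukemia array 2 this was 23 of 31 (median 0.09), with Tomm20 at 0.49, and in the WT it was 21 of 31 (median 0.07; 0.02 without WT L-GMP array 2), with Timm17a at 0.28 (SE 0.10). Without both KO arrays numbered 2 the median in L-GMP between genotypes was -0.04 and that between populations in the KO -0.0080.

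Partners and upstream regulators of PGC-1 numbered 29 tested of 30, and 0 were called by limma. The KO was higher for 14 in L-GMP and 14 in whole leukemia (medians -0.01 and -0.0016). Gabpb2, encoding a β subunit of GABP, was at -0.29 (SE 0.14) and -0.32 (SE 0.14), the second at -0.20 without KO whole leukemia array 2. In the other direction, Yy1 was at 0.25 (SE 0.12) in L-GMP and Max at 0.37 (SE 0.19) in whole leukemia. Between populations in the KO the acetyltransferase gene Kat2a was at 1.00 (SE 0.33) and the thyroid hormone receptor gene Thra at 0.53 (SE 0.19), while 13 of 29 were higher in L-GMP. KO whole leukemia array 2 had the lowest Kat2a, 6.11 against 7.11 to 8.14 on the other 11 arrays, and without it Kat2a was at 0.56, Thra at 0.31, and 17 of 29 were higher. In the WT 14 of 29 were higher in L-GMP, and 9 without WT L-GMP array 2. Genes of mitochondrial fission, fusion and mitophagy numbered 16 tested of 18, with 0 called by limma. The KO was higher for 6 in L-GMP and 3 in whole leukemia (medians -0.07 and -0.13). In L-GMP the mitophagy kinase gene Pink1 was at -0.30 (SE 0.16). In whole leukemia Bnip3 was at -0.74 (SE 0.37), with overlap, and the inner membrane fusion gene Opa1 at -0.41 (SE 0.21). Without KO whole leukemia array 2 Opa1 was at -0.13 and the whole leukemia number was 6 (median -0.06), it was 5 without KO whole leukemia array 1, KO whole leukemia array 3 or WT whole leukemia array 2, and without KO L-GMP array 1 Pink1 was at -0.18. L-GMP was higher for 11 in the KO and 8 in the WT, the second being 13 without WT whole leukemia array 2.

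**Figure D5:**
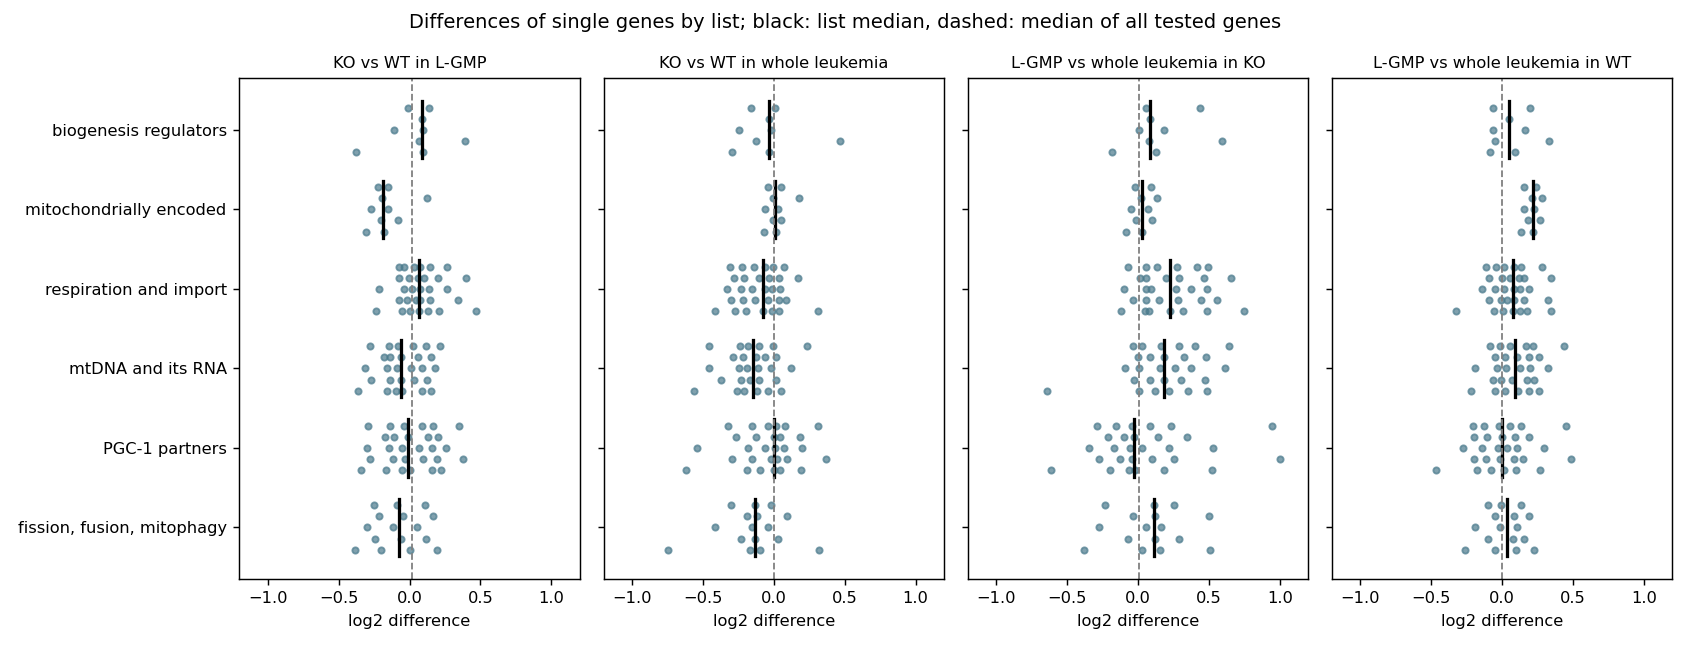
Log2 differences of single tested genes (points) in 6 lists and 4 comparisons, with the median of each list (black bar) and of all tested genes (dashed line). Positive values are higher in the KO in the first 2 panels and in L-GMP in the last 2. Vertical place within a row has no meaning. The 10 mitochondrially encoded genes lie below 0 in L-GMP for KO against WT except 1, and above 0 between populations in the WT.

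Markers of other cell types moved with some of these groups, and their part in the mitochondrial values was not tested. Erythroid markers (6 of 10 above the filter) had a mean of 9.45 on KO whole leukemia array 2, 5.72 and 6.43 on the other KO whole leukemia arrays, and 5.48 to 5.57 in WT whole leukemia. Neutrophil markers (10 of 10) had means of 8.96, 11.66 and 10.22 in KO against 7.95, 7.72 and 10.23 in WT whole leukemia, and of 6.42 to 8.78 in L-GMP. Monocyte and macrophage markers (9 of 10) ranged from 7.01 to 7.43 in KO against 7.45 to 8.26 in WT L-GMP, and from 7.04 to 7.68 in KO against 8.10 to 8.57 in WT whole leukemia. Eosinophil, basophil and mast cell markers (7 of 10) had a mean of 7.98 on KO L-GMP array 2, against 5.65 to 6.63 on the other 11 arrays. Proliferation markers (11 of 12) had means of 8.26, 8.85 and 7.35 in KO against 8.35, 8.79 and 8.65 in WT L-GMP, and of 8.41, 9.01 and 7.37 in KO against 8.30, 8.47 and 8.33 in WT whole leukemia. B cell markers (5 of 8) ranged from 5.42 to 5.81 and T and NK cell markers (4 of 8) from 4.80 to 5.13. The 4 genes of the L-GMP gate had means of 8.25 to 8.81 in L-GMP and 7.31 to 8.18 in whole leukemia. In the WT 2 of the 4 were higher in L-GMP and 2 lower, with differences of -0.32 to 1.03. In the KO all 4 were higher, by 0.08 to 3.26, with the highest for Cd34. Cd34 was also lower in KO than in WT whole leukemia, at -2.32.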

How the data were processed

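Values on the 12 arrays are linear probe set intensities as deposited by the authors, from 17.96 to 9108.2 over 33794 probe sets. Per the labels' protocols, cells were sorted into Trizol and biotinylated cDNA was made with NuGEN amplification kits. How intensities were computed and normalized is not given in the sources used here. No scanner files were used, so scan batches were not analysed here. Precision is limited by 3 arrays a group.

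Intensities were taken to log2 with no pseudocount or further scaling, since array medians differed by 0.0925 log2. In the platform annotation 23521 probe sets had 1 symbol, 1814 several, and 8459 were unnamed here. Gene identifiers matched the RefSeq table of GRCm38.p6 in 99.2%, with 0 symbols changed. Each gene took its brightest probe set, and 4431 genes with a mean under 4.72, the 25th percentile of probe sets, were left out. Groups were compared with limma 3.58.1 (lmFit and eBayes, 8 residual and 2.36 prior degrees of freedom) in R 4.3.3 over all 12 arrays. All 10 members are named. So are, of each pathway list, up to 2 genes of lowest p in a comparison, and per member the 2 genes of highest Pearson correlation. The members and lists were chosen with earlier results of these data known, and leaving out single arrays from list counts and list genes and testing each Tfb2m probe set were added after seeing the data. The test was checked on simulated arrays with independent normal noise and no array standing apart. That check required calls only for changes far larger than those of the members, so it does not show that changes of their size would be called. In the WT, deviations from group means correlated at 0.363, 0.623 and 0.301 between L-GMP and whole leukemia arrays of equal replicate number. Arrays of unequal number gave -0.373 to 0.029. In the KO equal numbers gave 0.133, 0.090 and 0.432, and unequal numbers -0.376 to 0.19. Between genotypes equal numbers gave -0.104 to 0.187. The main fit took the arrays as unpaired, and the replicate block setting paired them by number.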

Additional observations from a re-analysis of the deposited data

How the results depend on the processing

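The differences of the 9 tested members were recomputed under up to 24 settings, 991 values in all. Called members numbered 0 under each, with the replicate block too (0 in all 5 comparisons). Of these values 78 reversed their direction, in 28 of the 45 member comparisons, so most of these small differences have no settled sign. The other 913 kept it, but many of them could not do otherwise. A change of filter or of variance model leaves a difference of group means as it was. So does leaving out an array of a group that is not compared. Among Ppargc1b, Gabpa, Tfam, Tfb1m, Tfb2m and Polg the sign turned in at least 4 of the 5 comparisons, against 2 for Esrra, 1 for Nrf1 and 0 for Pprc1.

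For KO against WT in L-GMP, leaving out 1 array at a time gave -0.15 to 0.23 for Ppargc1b, -0.16 to 0.27 for Gabpa, -0.13 to 0.28 for Tfam, -0.37 to 0.23 for Tfb1m and -0.18 to 0.024 for Polg. Array weights gave -0.26 for Ppargc1b and -0.033 for Gabpa, and leaving out both number-2 KO arrays -0.15, -0.077 and, for Tfam, -0.13. Quantile normalization gave 0.0089 for Tfb1m. In whole leukemia, leaving out 1 array at a time gave -0.11 to 0.10 for Nrf1, -0.11 to 0.062 for Gabpa, -0.10 to 0.014 for Esrra and -0.17 to 0.20 for Polg. Nrf1 was -0.0061 with arrays centred on their medians, -0.032 with array weights and -0.11 without both number-2 KO arrays, which gave 0.062 for Gabpa and 0.0035 for Esrra. Quantile normalization gave 0.0012 for Polg, and Tfb2m probe set 17280923 gave -0.10.

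For L-GMP against whole leukemia in the KO, leaving out both number-2 KO arrays gave -0.10 for Ppargc1b, -0.20 for Gabpa, -0.033 for Tfam, -0.034 for Tfb1m and -0.16 for Tfb2m. Leaving out 1 array gave -0.094 to 0.28 for Ppargc1b, -0.11 to 0.20 for Gabpa, -0.093 to 0.25 for Tfb2m, -0.041 to 0.16 for Esrra and -0.22 to 0.15 for Polg, which was -0.025 with quantile normalization. In the WT it gave -0.22 to 0.13 for Ppargc1b, -0.25 to 0.19 for Gabpa, -0.29 to 0.31 for Tfb1m and -0.068 to 0.12 for Tfam. Array weights gave 0.077 for Ppargc1b, 0.033 for Gabpa and 0.11 for Tfb1m, and Tfb2m probe set 17280923 gave -0.16.

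For the interaction, leaving out 1 array gave -0.027 to 0.35 for Ppargc1b, -0.13 to 0.30 for Gabpa, -0.12 to 0.48 for Tfb1m, -0.32 to 0.10 for Tfb2m and -0.31 to 0.058 for Polg. Array weights gave -0.077 for Ppargc1b, -0.022 for Gabpa and 0.20 for Polg. Leaving out both number-2 KO arrays gave -0.033 for Ppargc1b, -0.14 for Gabpa and -0.080 for Tfam. Tfb2m was 0.062 with the mean of its probe sets, 0.25 on 17280923 and 0.012 on 17230331. The causes were not tested. Ppargc1a was fitted only with no filter.

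Over all genes, KO against WT in L-GMP had 1 call, against 0 with no filter, the 2 compared groups alone or the replicate block, 2 with a trended and robust variance or the mean of probe sets, 4 with array weights and 0 to 2 without 1 array. In whole leukemia 0 calls became 1 without both number-2 KO arrays and 0 to 1 without 1 array. Between populations in the KO 0 became 1 with the lowest 50% left out or a trended variance, and 0 to 40 without 1 array, with the 40 reached without KO whole leukemia array 1.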
